A study of Homo sapiens with 15 samples.

Results

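Cytokines, chemokines and response genes of the NF-kB pathway were examined in HCC95 cells, an established cell line from a human lung squamous cell carcinoma (LUSC). The 44 genes were taken by name from the deposited table of raw counts, which lists 61544 genes. They comprise 9 CXC chemokines, 4 CC chemokines, 7 members of the interleukin-1 family, 11 other cytokines, 5 subunits and inhibitors of NF-kB, 4 other response genes and 4 secreted defence proteins. They were matched by gene name, and the set itself was put together with earlier results of these data known.

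Chemokines and interleukins are secreted signals by which epithelial cells attract and activate leukocytes, and in the airway and other squamous epithelia they form part of the first response to injury and infection. Many of them are transcribed when NF-kB, a family of dimeric transcription factors held in the cytoplasm by inhibitor proteins, is released into the nucleus. The pathway also switches on its own inhibitors, so that NFKBIA and TNFAIP3 act as brakes on the signal that induced them.

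RNA-seq was carried out on HCC95 cells given a small interfering RNA (siRNA), a short double-stranded RNA that directs the cleavage of a matching mRNA. The 5 groups were siNC1, the negative control, and siKLF5b, siTP63b, siSOX2b and siGRHL2a, each directed at the transcription factor in its name, with 3 libraries per group. The labels do not say that the replicates came from separate cultures, so p-values measure the spread between these libraries, which may be technical. Each factor was represented by 1 siRNA in 1 cell line, so a difference cannot be told apart from an effect of that siRNA on other transcripts. The time between transfection and RNA isolation was not given in the sources used here.

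Library totals ranged from 15655495 to 34229063 counts. The column names of the table part the libraries into a set of siNC1 and siKLF5b and a set of siTP63b, siSOX2b and siGRHL2a. Where a gene had 20 to 500 counts, even numbers made up 49.7% to 50.7% of values in the 6 libraries of the first set and 66.1% to 69.0% in the 9 of the second. A difference between siNC1 and a knockdown of the second set therefore cannot be told apart from the set, and 4 comparisons were made within sets: siKLF5b against siNC1, siTP63b against siSOX2b, siTP63b against siGRHL2a and siSOX2b against siGRHL2a. All 12 squamous epithelial markers were above 3 counts in at least 1 library of every group. Of 12 leukocyte markers, CSF1R carried the summed level, and it contains a pseudogene (RPL7P1) with 98.6% as many counts. The other 11 summed to 0.428 to 1.41 CPM (counts scaled to the normalised library total) in the 15 libraries. Whether reads or fragments were counted was not given in the sources used here. Where both mates of a pair are counted, a count of 2 can be 1 fragment, so the counts of the second set, and the calls on low counts in it, may rest on fewer fragments than they appear to.

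The targeted genes were read first. KLF5 was at 72.5 ± 1.13 CPM in siKLF5b and 113 ± 8.67 CPM in siNC1 (mean ± SD, n = 3 each), with a log2FC of -0.64 (SE 0.06, adjusted p 5.6e-12 by edgeR). Within the second set, TP63 was at 363 ± 22.3 CPM in siTP63b against 690 in siSOX2b and 831 in siGRHL2a. SOX2 was at 8.97 ± 1.63 CPM in siSOX2b against 29.5 in siTP63b and 20.2 in siGRHL2a, and GRHL2 at 91.3 ± 0.560 CPM in siGRHL2a against 117 and 100. Each targeted gene was lowest in its own group of its set, and a large part of the KLF5, TP63 and GRHL2 transcript was still counted. GRHL2 differed little between siSOX2b and siGRHL2a (log2FC 0.14, SE 0.05, adjusted p 0.0315 by edgeR). SOX2 was higher in siKLF5b than in siNC1, at 107 and 73.3 CPM (log2FC 0.54, SE 0.08, adjusted p 2.8e-06 by edgeR). Bulk libraries cannot tell fewer cells with a transcript from less of it per cell.

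The promoters were searched for 2 motifs. The kappaB consensus is the DNA motif bound by NF-kB dimers. The AP-1 motif, bound by JUN and FOS family dimers, was searched as TGANTCA, where N is any base. Both strands were searched in the 250 bases before each gene start in RefSeq (build GRCh38.p14), matches that overlapped or touched were joined, and a gene with several starts was counted when any of its windows held the motif. Of the 44 genes, 33 had an entry and 11 had none (CXCL16, CCL2, CCL5, IL18, CSF1, CSF3, LIF, RELB, SLPI, SAA1 and SAA2). The kappaB consensus was found in 16 of the 33, against 6.28% of all 27305 genes with an entry. The genes were picked partly as response genes of NF-kB, so a larger share comes with the choice and is no result of these data. The AP-1 motif was found in 7 of the 33, against 8.06% of all. The match in LCN2 was TGAATCA, and those in the other genes were TGACTCA or TGAGTCA. A match is a stretch of letters, not a site shown to be bound. A window without a match may still hold a site that differs from the motif, or a site may lie outside the 250 bases.

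The 5 windows printed here belong to genes on which the comparisons below turn, BIRC3, CXCL1 and IL6 with the kappaB consensus in capitals and CXCL14 and IL1A with the AP-1 motif in capitals. Only windows with a match were printed, so they do not show how motifs divide between higher and lower genes. IL1B and IL36G, on which the comparisons also turn, have windows that hold neither motif. All 5 printed windows are read 5′ to 3′ on the strand of the gene, and end at the base before its RefSeq start. Gene spans given below are those of the Gencode annotation used for counting. Its starts can differ from RefSeq, so a window may overlap or lie inside a span. BIRC3 lies on the plus strand (window chr11:102317234-102317483), CXCL1 on the plus strand (chr4:73869143-73869392), IL6 on the plus strand (chr7:22726950-22727199), CXCL14 on the minus strand (chr5:135578992-135579241) and IL1A on the minus strand (chr2:112784494-112784743, the start farthest upstream of those listed for IL1A).
BIRC3: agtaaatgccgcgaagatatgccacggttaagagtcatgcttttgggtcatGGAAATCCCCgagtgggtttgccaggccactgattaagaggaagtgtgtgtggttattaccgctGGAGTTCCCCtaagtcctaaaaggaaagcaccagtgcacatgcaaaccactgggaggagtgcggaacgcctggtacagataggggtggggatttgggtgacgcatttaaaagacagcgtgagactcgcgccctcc
CXCL1: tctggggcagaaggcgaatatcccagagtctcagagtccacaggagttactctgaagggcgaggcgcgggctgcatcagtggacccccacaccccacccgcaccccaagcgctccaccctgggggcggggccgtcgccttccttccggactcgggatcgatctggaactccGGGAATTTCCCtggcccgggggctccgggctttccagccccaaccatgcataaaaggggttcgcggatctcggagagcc
IL6: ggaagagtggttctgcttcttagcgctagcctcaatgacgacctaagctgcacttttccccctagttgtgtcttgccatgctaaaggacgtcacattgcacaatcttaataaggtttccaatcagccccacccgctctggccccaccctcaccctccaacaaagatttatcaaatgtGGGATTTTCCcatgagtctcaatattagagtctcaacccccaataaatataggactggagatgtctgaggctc
CXCL14: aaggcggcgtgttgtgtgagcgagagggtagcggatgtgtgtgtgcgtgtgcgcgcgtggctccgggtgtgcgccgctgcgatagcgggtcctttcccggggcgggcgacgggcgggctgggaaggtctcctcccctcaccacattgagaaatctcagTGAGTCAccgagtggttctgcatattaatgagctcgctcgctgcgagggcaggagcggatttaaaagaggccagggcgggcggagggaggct
IL1A: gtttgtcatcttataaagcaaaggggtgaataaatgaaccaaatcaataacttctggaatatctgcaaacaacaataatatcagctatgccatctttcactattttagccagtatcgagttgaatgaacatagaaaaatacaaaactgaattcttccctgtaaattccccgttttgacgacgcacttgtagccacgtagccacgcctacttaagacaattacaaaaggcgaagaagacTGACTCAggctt
The matches in BIRC3 begin 199 and 135 bases before the start, the match in CXCL1 79 bases and that in IL6 73 bases before it. The AP-1 motif begins 92 bases before the start of CXCL14 and 12 bases before that of IL1A. The CXCL2 and CXCL3 windows hold the same 11 letters as that of CXCL1, GGGAATTTCCC, 78 and 79 bases before their starts, and CXCL5 holds them 91 bases before its own.

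Not every gene could be read. A low-count filter over all genes kept 25108 genes, among them 34 of the 44, and removed CXCL5, CXCL10, CXCL11, CCL5, IL11, IL20, IL33, CSF2, CSF3 and TNF. CXCL2, a neutrophil chemokine close in sequence to CXCL1, passed but stayed under a mean of 10 counts in every group, at 0 to 12 counts in the 15 libraries. That left 33 genes that could be read and 11 too low to read. With the counts of the second set halved, an alternative chosen after seeing the data, 31 could be read, and CXCL3 and SAA2 fell under the line. The interferon-induced chemokines CXCL10 and CXCL11, which attract T cells, the neutrophil chemokine CXCL5 and the keratinocyte-acting cytokine IL20 had no more than 3 counts per library in all 5 groups. TNF, the classical inducer of NF-kB, had at most 1 count per library in siNC1 and siKLF5b, 0 counts in siSOX2b, 2, 0 and 0 counts in siGRHL2a, and 0, 6 and 8 counts in siTP63b. The T cell chemokine CCL5, the gp130 cytokine IL11, the alarmin IL33 and the colony-stimulating factors CSF2 and CSF3, which drive granulocyte and macrophage production, never exceeded 9 counts in a library. Of these 11 genes CXCL2 alone was tested, and it passed the adjusted p in no comparison. No statement is made on a change in the other 10.

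**Figure D1:**
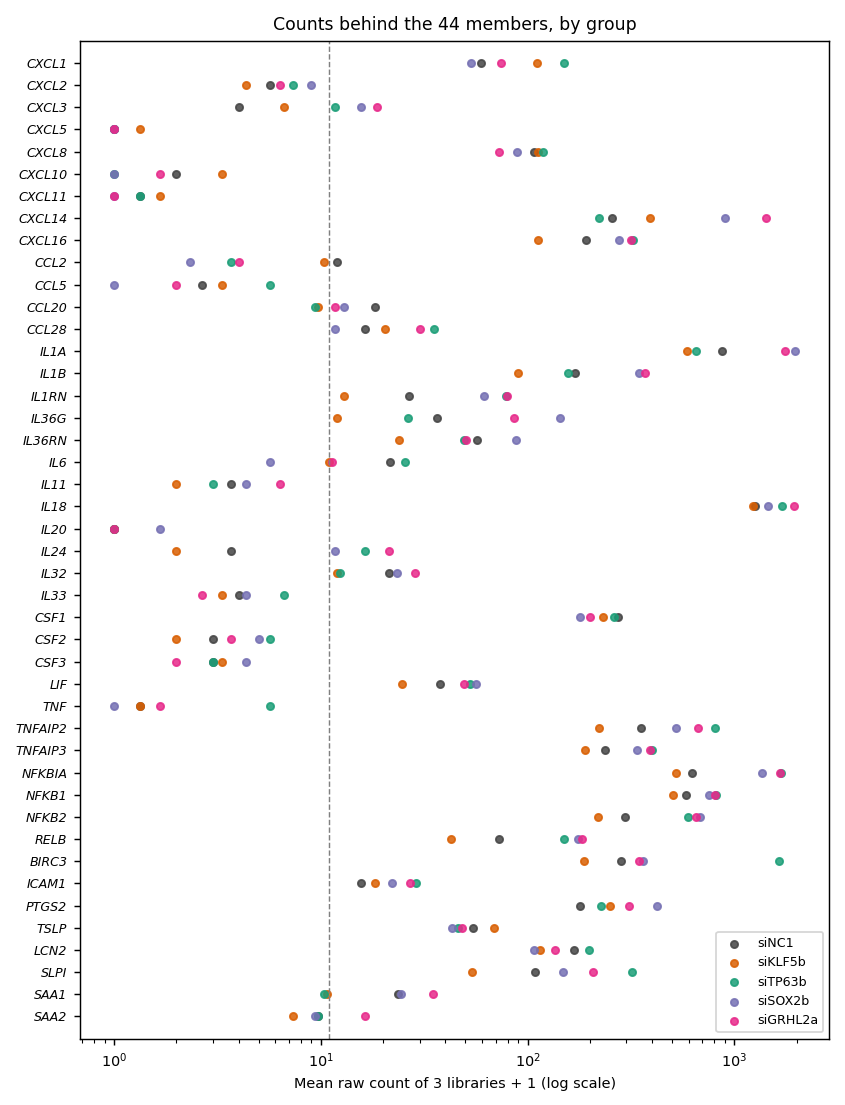
Mean raw count of each of the 44 genes in the 5 groups, plotted as the mean of 3 libraries plus 1 on a log axis, with 1 point per group. The dashed line marks a mean of 10 counts, and the 11 genes whose points all lie left of it were too low to read.

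Levels of different genes were compared per kilobase (kb) of gene span, since introns were counted with exons. In siNC1 the highest was NFKBIA, the inhibitor that holds NF-kB in the cytoplasm, at 8.94 CPM per kb. The interleukins IL1A and IL18 followed at 3.85 and 2.79, and the protease inhibitor SLPI and the iron-scavenging lipocalin LCN2 were at 2.16 and 1.77. NFKBIA was the highest of the 44 in the other 4 groups as well, at 7.84 CPM per kb in siKLF5b, 17.7 in siTP63b, 14.4 in siSOX2b and 15.3 in siGRHL2a. This rank rests on the short NFKBIA span, and by mean CPM alone NFKBIA was the highest in no group. In siNC1 IL18 was at 58.1 CPM and NFKBIA at 29.0, and in siSOX2b IL1A was at 66.9 CPM and NFKBIA at 46.7. The 44 genes together summed to 286 to 314 CPM in the siNC1 libraries and 256 to 269 in siKLF5b. In the second set they summed to 364 to 373 CPM in siTP63b, 353 to 368 in siSOX2b and 351 to 365 in siGRHL2a, so no knockdown of this set stood far from the others in its total.

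The question of the first comparison was what KLF5 siRNA did to these genes relative to the control siRNA. In siKLF5b, 4 of the 6 interleukin-1 family genes tested fell, and with them the secreted defence proteins SLPI and SAA1, while the neutrophil chemokine CXCL1 rose. Of the 34 genes tested, 1 was higher and 6 were lower at an adjusted p below 0.05 and an absolute log2 fold change (log2FC) above 0.75. That is 20.6% of them, against a background of 3.25% of all 25108 genes (1.9% higher and 1.35% lower). A further 9 passed the adjusted p alone, so that 47.1% of the 34 were under 0.05, against 23.4% of all genes. The median log2FC of the 34 was -0.46, against -0.0097 for all genes tested. The 10 squamous markers other than TP63 and SOX2 summed to 9931 to 11460 CPM in siNC1 and 6671 to 7749 in siKLF5b, and their part in these results was not tested. The sum mostly follows the keratin KRT5, at a mean of 7282 CPM over the 15 libraries. The other markers in it averaged 94.4 to 330 CPM each.

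The decreases took in agonists, IL1B and IL36G, and the matching antagonists, IL1RN and IL36RN. IL1B, a cytokine that must be cleaved before it signals, was at 7.62, 8.45 and 7.47 CPM in siNC1 and 4.67, 4.19 and 3.88 CPM in siKLF5b. The groups did not overlap, and the log2FC was -0.87 (SE 0.14, adjusted p 3.4e-06). IL1RN, the secreted antagonist that blocks the receptor for IL1A and IL1B, was at 1.02, 1.26 and 1.30 CPM in siNC1 and 0.366, 0.781 and 0.572 CPM in siKLF5b. All control libraries lay above all siKLF5b libraries, on 23, 23 and 31 counts against 8, 19 and 9, with a log2FC of -1.04 (SE 0.32, adjusted p 0.0132). This call was lost when siKLF5b replicate 1 (adjusted p 0.117) or siNC1 replicate 3 (adjusted p 0.0521) was left out.

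The IL-36 pair showed the largest decreases among the genes past both thresholds. IL36G, an epithelial agonist of the IL-36 receptor, was at 1.68, 1.76 and 1.51 CPM in siNC1 and 0.961, 0.288 and 0.318 CPM in siKLF5b. Replicate 1 of siKLF5b stood about midway between the controls and the other 2 siKLF5b libraries. The log2FC was -1.62 (SE 0.34, adjusted p 3.5e-04), and -2.45 without that library. IL36RN, the antagonist at the same receptor, was at 2.53, 2.36 and 2.81 CPM in siNC1 and 1.01, 1.27 and 1.02 CPM in siKLF5b. Here the siKLF5b libraries sat close together and all under the controls, with a log2FC of -1.21 (SE 0.25, adjusted p 2.3e-04). IL1A, an agonist that is active without cleavage, passed the adjusted p alone: 38.7, 42.9 and 40.4 CPM in siNC1, 28.7, 29.9 and 26.4 CPM in siKLF5b and a log2FC of -0.52 (SE 0.07, adjusted p 7.9e-07). IL18, the remaining family member that could be read, was at 59.7, 57.3 and 57.3 CPM in siNC1 and 60.7, 58.7 and 58.8 CPM in siKLF5b. Its log2FC of 0.03 (SE 0.06, adjusted p 0.78) had an interval of 2 SE from -0.09 to 0.16. IL18 lies inside ENSG00000255292, a gene on the opposite strand with 170% as many counts.

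Among the chemokines, CXCL1 moved the other way. CXCL1, a ligand of CXCR2 that attracts neutrophils, was at 3.32, 2.30 and 2.47 CPM in siNC1 and 5.86, 4.93 and 5.28 CPM in siKLF5b. Every siKLF5b library was above every control, and the log2FC was 0.98 (SE 0.19, adjusted p 1.0e-04). CXCL1 shares stretches with CXCL2 and CXCL3, and reads that match several copies equally are left out of a count of unique alignments, so its value is uncertain to that extent. CXCL8, another CXCR2 ligand, was at 5.28, 4.72 and 4.82 CPM in siNC1 and 5.54, 5.30 and 5.21 CPM in siKLF5b. The ranges of CXCL8 overlapped (log2FC 0.12, SE 0.18, adjusted p 0.708), with an interval from -0.24 to 0.47. CXCL14, a chemokine made by resting epithelia, was at 12.5, 11.3 and 11.4 CPM in siNC1 and 20.5, 18.3 and 17.3 CPM in siKLF5b and passed the adjusted p alone (log2FC 0.68, SE 0.18, adjusted p 0.0161). ENSG00000250167, on the opposite strand over the whole CXCL14 span, had a log2FC of 0.64. CXCL16, a membrane-bound ligand of CXCR6, was the opposite case, at 9.75, 8.62 and 8.05 CPM in siNC1 and 6.18, 4.60 and 5.47 CPM in siKLF5b (log2FC -0.71, SE 0.15, adjusted p 2.6e-04).

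Of the 4 defence proteins, SLPI and SAA1 fell. SLPI, which inhibits neutrophil elastase, was at 5.90, 4.99 and 4.19 CPM in siNC1 and 3.06, 2.34 and 2.23 CPM in siKLF5b. The ranges did not overlap, with a log2FC of -0.97 (SE 0.18, adjusted p 5.0e-05). SAA1, an acute-phase protein, rested on 23, 18 and 27 counts in siNC1 and 13, 8 and 8 counts in siKLF5b. Its log2FC was -1.15 (SE 0.39, adjusted p 0.0251), and the call was lost without siKLF5b replicate 2 (adjusted p 0.151), siNC1 replicate 1 (0.0546) or siNC1 replicate 3 (0.0765). SAA1 and SAA2 are near-identical, so their counts are uncertain. LCN2 passed the adjusted p alone, at 7.62, 8.12 and 7.55 CPM in siNC1 and 5.31, 4.73 and 6.93 CPM in siKLF5b (log2FC -0.47, SE 0.15, adjusted p 0.0186).

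The remaining genes that passed the adjusted p alone were RELB (log2FC -0.72) and NFKB2 (-0.38), subunits of the alternative NF-kB pathway, TNFAIP2 (-0.62), a TNF-induced protein, BIRC3 (-0.53), an inhibitor of apoptosis, and PTGS2 (0.54), the inducible cyclooxygenase. All but PTGS2 were lower in siKLF5b. RELB was at 3.81, 2.85 and 3.27 CPM in siNC1 and 2.10, 2.01 and 1.91 CPM in siKLF5b, without overlap. PTGS2 was at 8.51, 7.30 and 8.77 CPM in siNC1 and 12.9, 11.8 and 11.0 CPM in siKLF5b, again without overlap. The other readable genes missed the adjusted p, and the widest uncertainty among them was that of IL24, a cytokine of the IL-10 family, with an interval of the log2FC from -3.41 to 0.85.

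**Figure D2:**
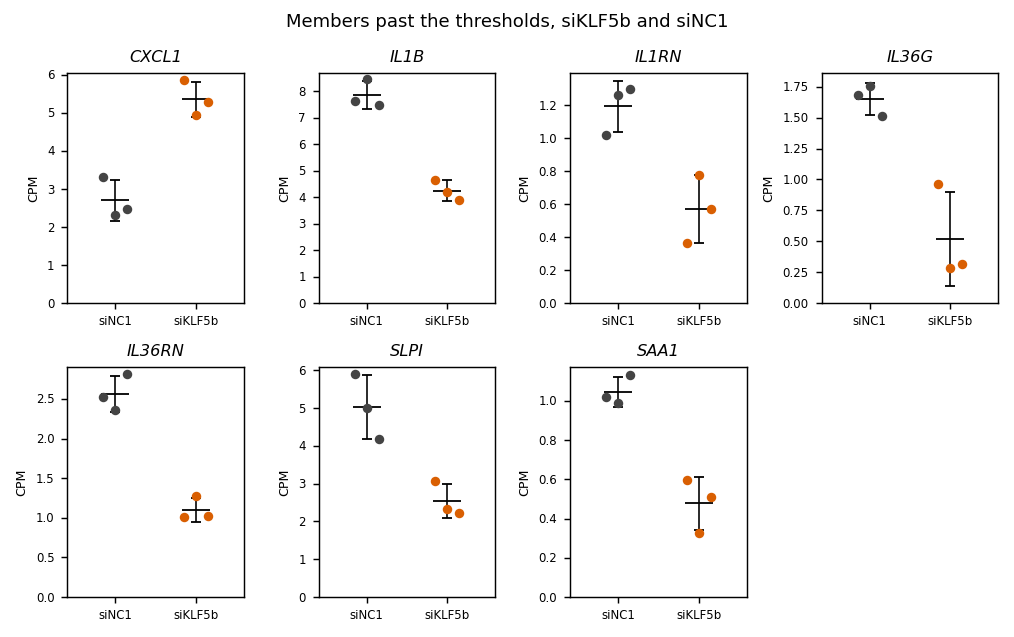
CPM of the 7 genes past both thresholds in siKLF5b against siNC1, with 1 point per library and the mean ± SD of 3 libraries in black. The 3 siKLF5b points lie above the siNC1 points for CXCL1 and below them for the other 6 genes.

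In the second set the question was how the TP63, SOX2 and GRHL2 knockdowns differed from each other, with no control siRNA in the same set. A value that is higher in siTP63b than in siSOX2b can therefore be a rise in the first or a fall in the second. The comparisons of siTP63b with siSOX2b and with siGRHL2a share the 3 siTP63b libraries, and their values are given side by side. The siTP63b libraries had more BIRC3, CXCL1, IL6 and SLPI and less CXCL14, IL1A, IL1B and IL36G than either other knockdown. Of the 34 genes tested against siSOX2b, 6 were higher and 7 lower in siTP63b, or 38.2%, against a background of 6.72% (3.86% higher and 2.86% lower). Against siGRHL2a, 5 were higher and 6 lower, or 32.4%, against a background of 5.44% (2.18% higher and 3.26% lower). A further 5 and 4 genes passed the adjusted p alone, so that 52.9% and 44.1% of the 34 were under 0.05, against 31.9% and 27.4% of all genes. The median log2FC of the 34 was 0.17 and 0.16, against 0.00059 and -0.0090 for all genes tested. The 10 squamous markers other than TP63 and SOX2 summed to 6568 to 7582 CPM in siTP63b, 8650 to 9541 in siSOX2b and 11067 to 11347 in siGRHL2a, and their part in these results was not tested. These sums too mostly follow KRT5.

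BIRC3 had the smallest adjusted p of the higher genes in both comparisons. It encodes cIAP2, a ubiquitin ligase that restrains cell death and acts in TNF receptor signalling, and its gene spans chr11:102317450-102339403 on the plus strand. BIRC3 was at 55.3, 60.1 and 52.8 CPM in siTP63b, 12.6, 13.4 and 9.91 CPM in siSOX2b and 11.9, 8.80 and 10.2 CPM in siGRHL2a. The siTP63b libraries all held over 50 CPM while the other 6 stayed under 15. The log2FC was 2.22 (SE 0.10, adjusted p 1.4e-21) against siSOX2b and 2.45 (SE 0.10, adjusted p 1.6e-22) against siGRHL2a. A gene on the opposite strand, ENSG00000288528, covers 50.7% of the BIRC3 span and had 69.8% as many counts over the 15 libraries. Its log2FC was 2.18 and 2.46 in the same comparisons, and since the use of strand in counting was not stated, the reads of the pair cannot be told apart.

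The neutrophil chemokine CXCL1 was higher in siTP63b in both comparisons, and CXCL8 against siGRHL2a. CXCL1 was at 4.83, 5.85 and 4.56 CPM in siTP63b, 1.47, 2.21 and 1.59 CPM in siSOX2b and 2.49, 2.08 and 1.96 CPM in siGRHL2a. The lowest siTP63b library was above the highest of the other 6. The log2FC was 1.52 (SE 0.19, adjusted p 1.5e-08) against siSOX2b and 1.22 (SE 0.18, adjusted p 7.7e-07) against siGRHL2a. CXCL8 was at 4.83, 3.81 and 3.28 CPM in siTP63b, 3.24, 3.33 and 2.03 CPM in siSOX2b and 2.38, 1.81 and 2.2 CPM in siGRHL2a. The siTP63b and siSOX2b ranges overlapped, and the difference missed the adjusted p (log2FC 0.45, SE 0.18, adjusted p 0.0505). Against siGRHL2a the log2FC of CXCL8 was 0.90 (SE 0.18, adjusted p 1.5e-04), and it slipped to 0.74, under the threshold, without siTP63b replicate 1.

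CCL28, a chemokine of mucosal epithelia, was counted 38, 41 and 24 times in siTP63b, 18, 12 and 2 times in siSOX2b and 30, 42 and 16 times in siGRHL2a. It was higher in siTP63b than in siSOX2b (log2FC 1.71, SE 0.42, adjusted p 0.00135), without overlap in CPM. Against siGRHL2a the test was not passed (log2FC 0.41, SE 0.37, adjusted p 0.45). IL6, a gp130 cytokine of the acute-phase response, was at the low end of what could be read. Its counts were 24, 30 and 20 in siTP63b, 8, 4 and 2 in siSOX2b and 9, 4 and 18 in siGRHL2a. Every siTP63b library was above the other 6, with a log2FC of 2.38 (SE 0.51, adjusted p 2.8e-04) against siSOX2b and 1.42 (SE 0.45, adjusted p 0.0147) against siGRHL2a. The second call was lost without siGRHL2a replicate 1 (adjusted p 0.0553), siGRHL2a replicate 2 (0.106) or siTP63b replicate 2 (0.0617), and the log2FC reached 2.11 without siGRHL2a replicate 3. STEAP1B, on the opposite strand over 28.3% of the IL6 span, had 3252% as many counts, and its own log2FC was 0.48 and 0.32.

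The secreted defence proteins divided. SLPI was at 11.3, 10.5 and 10.7 CPM in siTP63b, 5.26, 4.73 and 4.95 CPM in siSOX2b and 7.72, 5.31 and 5.44 CPM in siGRHL2a. The siTP63b libraries were above all others, with a log2FC of 1.12 (SE 0.14, adjusted p 3.4e-08) against siSOX2b and 0.81 (SE 0.14, adjusted p 1.2e-05) against siGRHL2a. Without siGRHL2a replicate 2 or 3 the second value was 0.71 or 0.74, under the threshold. LCN2 was at 6.07, 6.93 and 7.05 CPM in siTP63b, 3.55, 3.15 and 4.42 CPM in siSOX2b and 3.77, 4.52 and 3.79 CPM in siGRHL2a. The siTP63b libraries were again the highest, with a log2FC of 0.86 (SE 0.15, adjusted p 1.4e-05) against siSOX2b and of 0.73 (SE 0.15, adjusted p 1.5e-04) against siGRHL2a, the latter just inside 0.75 and so not counted. SAA1 went the other way, with 12, 8 and 8 counts in siTP63b, 28, 25 and 17 in siSOX2b and 38, 28 and 36 in siGRHL2a. It was lower in siTP63b in both comparisons, with a log2FC of -1.67 (SE 0.37, adjusted p 5.2e-04) against siGRHL2a.

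CXCL14 had the largest decrease against siGRHL2a. CXCL14 was at 8.35, 4.76 and 9.44 CPM in siTP63b, 33.0, 26.9 and 31.8 CPM in siSOX2b and 40.1, 40.2 and 47.7 CPM in siGRHL2a. The 3 groups did not overlap, siTP63b being the lowest and siGRHL2a the highest, and replicate 2 of siTP63b was below its 2 fellows. The log2FC was -2.03 (SE 0.18, adjusted p 9.0e-07) against siSOX2b and -2.51 (SE 0.18, adjusted p 1.1e-07) against siGRHL2a. The whole CXCL14 span (chr5:135570679-135579279, minus strand) lies within ENSG00000250167 on the opposite strand, which had 109% as many counts. Its log2FC was -1.98 and -2.46, and the reads of the pair cannot be told apart without strand.

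The agonists IL1A, IL1B and IL36G were lower in siTP63b. IL1A was at 21.8, 24.7 and 19.9 CPM in siTP63b, 67.9, 65.8 and 66.9 CPM in siSOX2b and 56.0, 52.4 and 48.2 CPM in siGRHL2a. All 3 groups were apart, siSOX2b being the highest. The log2FC was -1.59 (SE 0.07, adjusted p 2.3e-21) against siSOX2b and -1.24 (SE 0.07, adjusted p 1.3e-17) against siGRHL2a, on 558 to 2220 counts per library. IL1B was at 5.94, 4.52 and 5.45 CPM in siTP63b, 11.0, 12.7 and 11.4 CPM in siSOX2b and 10.9, 11.9 and 10.4 CPM in siGRHL2a. The siSOX2b and siGRHL2a ranges overlapped and siTP63b lay under both, with a log2FC of -1.14 (SE 0.12, adjusted p 3.3e-10) and -1.06 (SE 0.12, adjusted p 2.4e-09). IL36G was at 0.848, 0.884 and 0.855 CPM in siTP63b, 6.11, 4.67 and 3.18 CPM in siSOX2b and 2.38, 2.98 and 2.26 CPM in siGRHL2a. The siTP63b libraries were nearly equal and the siSOX2b libraries widely spread, with a log2FC of -2.44 (SE 0.26, adjusted p 3.4e-10) against siSOX2b and -1.55 (SE 0.27, adjusted p 1.3e-05) against siGRHL2a.

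Of the antagonists, IL36RN was past the thresholds in 1 of these comparisons and IL1RN in neither. IL1RN was at 2.28, 2.72 and 2.92 CPM in siTP63b, 1.83, 1.94 and 2.57 CPM in siSOX2b and 2.32, 2.08 and 2.63 CPM in siGRHL2a. The ranges overlapped, and the log2FC was 0.34 (SE 0.22, adjusted p 0.257) and 0.17 (SE 0.21, adjusted p 0.609). IL36RN was at 1.76, 1.77 and 1.35 CPM in siTP63b, 2.75, 2.73 and 3.54 CPM in siSOX2b and 1.74, 1.15 and 1.53 CPM in siGRHL2a. It was lower in siTP63b than in siSOX2b (log2FC -0.87, SE 0.22, adjusted p 0.00146), and against siGRHL2a the ranges overlapped (log2FC 0.15, SE 0.23, adjusted p 0.69). IL1A, IL1B, IL36G, IL36RN and IL1RN are neighbours on chromosome 2, in a cluster of 9 interleukin-1 family genes that spans chr2:112773925-113134016 (360092 bases).

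PTGS2 and IL32 completed the decreases. PTGS2, which makes prostaglandin precursors, was at 7.83, 6.73 and 8.48 CPM in siTP63b, 14.6, 14.8 and 13.1 CPM in siSOX2b and 9.25, 9.92 and 8.32 CPM in siGRHL2a. The siSOX2b libraries stood above all others, with a log2FC of -0.88 (SE 0.11, adjusted p 2.3e-08) for siTP63b against siSOX2b and -0.26 (SE 0.11, adjusted p 0.0911) against siGRHL2a. IL32, a cytokine that induces other cytokines, rested on 14, 8 and 12 counts in siTP63b, 29, 18 and 20 in siSOX2b and 23, 32 and 28 in siGRHL2a. Its log2FC against siGRHL2a was -1.09 (SE 0.38, adjusted p 0.0283), and that call was lost without siGRHL2a replicate 2 (adjusted p 0.0945) or 3 (0.0629) or siTP63b replicate 2 (0.124), and in DESeq2 (0.0549). Against siSOX2b it narrowly missed the adjusted p (log2FC -0.98, SE 0.39, adjusted p 0.0506). Genes that passed the adjusted p alone were all higher in siTP63b, namely CSF1, TNFAIP2, NFKBIA, TNFAIP3 and IL18 against siSOX2b (log2FC 0.57, 0.64, 0.30, 0.25 and 0.22) and CSF1, TNFAIP2, NFKBIA and LCN2 against siGRHL2a (0.58, 0.46, 0.21 and 0.73). CSF1 drives macrophage survival.

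**Figure D3:**
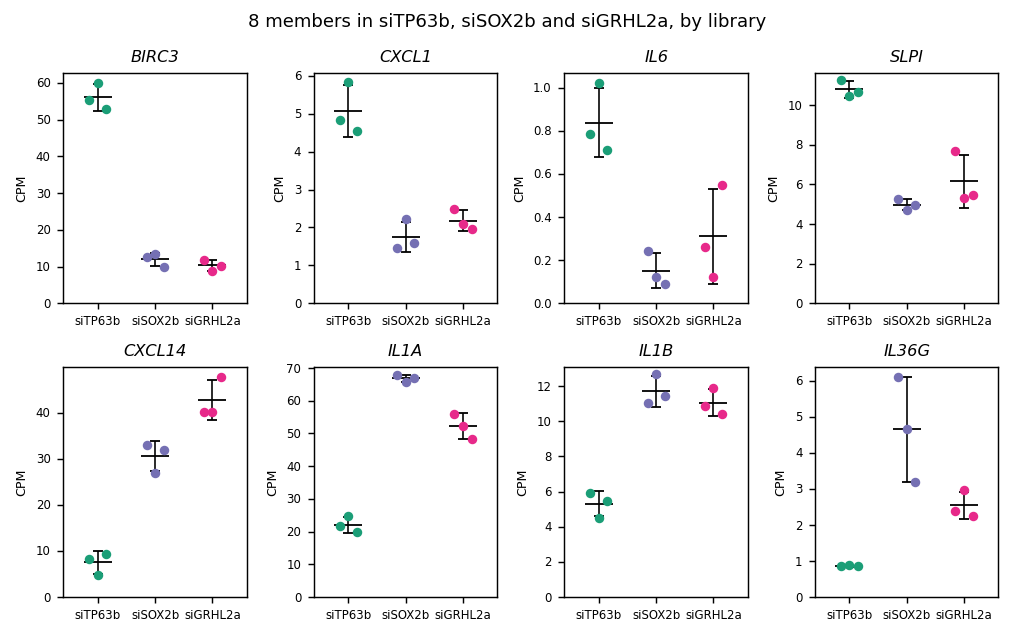
CPM of 8 genes per library of the second set (siTP63b, siSOX2b and siGRHL2a), with 1 point per library and the mean ± SD of 3 libraries in black. The siTP63b points lie above the other 6 for BIRC3, CXCL1, IL6 and SLPI and below them for CXCL14, IL1A, IL1B and IL36G.

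The last comparison, of siSOX2b with siGRHL2a, gave 3 genes past both thresholds. Of the 34 tested, IL36G and IL36RN were higher and CCL28 was lower in siSOX2b, or 8.82%, against a background of 3.34% (1.06% higher and 2.28% lower). The median log2FC was -0.07, against -0.018 for all genes tested. For IL36G, at 6.11, 4.67 and 3.18 CPM in siSOX2b and 2.38, 2.98 and 2.26 CPM in siGRHL2a, the log2FC was 0.89 (SE 0.22, adjusted p 0.0022). The lowest siSOX2b library was just above the highest of siGRHL2a, and the call was lost without siSOX2b replicate 1 (log2FC 0.65, adjusted p 0.0538). For IL36RN, whose libraries were given above, the groups did not overlap and the log2FC was 1.02 (SE 0.21, adjusted p 3.4e-04). CCL28 overlapped between the groups, at 0.550, 0.364 and 0.0885 CPM in siSOX2b and 0.870, 1.27 and 0.489 CPM in siGRHL2a. Its log2FC was -1.30 (SE 0.43, adjusted p 0.0208), and the call was lost without siGRHL2a replicate 2 (adjusted p 0.163), siSOX2b replicate 2 (0.0563) or siSOX2b replicate 3 (0.119). A further 5 genes passed the adjusted p alone, which brought the share under 0.05 to 23.5%, near the 24.9% of all genes, with PTGS2, IL1A and NFKB2 higher in siSOX2b (log2FC 0.63, 0.36 and 0.25) and CXCL14 and IL18 lower (-0.48 and -0.24).

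None of the NF-kB subunits and inhibitors, NFKB1, NFKB2, RELB, NFKBIA and TNFAIP3, passed both thresholds in any of the 4 comparisons by edgeR. By DESeq2 the count was 0 as well. By edgeR, 4, 3, 3 and 1 of the 5 had an unadjusted p under 0.05, in the order of the comparisons above. Of all genes, 23.4%, 31.9%, 27.4% and 24.9% passed the adjusted p, and the share under an unadjusted 0.05 cannot be smaller. With 3.25%, 6.72%, 5.44% and 3.34% of all genes past both thresholds, a count of 0 among 5 genes does not set them apart. Of the 5, NFKB2 and RELB in siKLF5b against siNC1, NFKBIA and TNFAIP3 in siTP63b against siSOX2b, NFKBIA in siTP63b against siGRHL2a and NFKB2 in siSOX2b against siGRHL2a passed the adjusted p alone. NFKB1, whose product is processed to a DNA-binding subunit of the classical pathway, was at 29.2, 26.4 and 27.1 CPM in siTP63b, 27.2, 24.6 and 25.0 CPM in siSOX2b and 22.1, 24.8 and 25.4 CPM in siGRHL2a. Its intervals of the log2FC ran from -0.05 to 0.26 against siSOX2b and from 0.04 to 0.35 against siGRHL2a. NFKBIA was at 59.1, 55.2 and 57.7 CPM in siTP63b, 44.6, 43.0 and 52.4 CPM in siSOX2b and 52.7, 47.4 and 48.5 CPM in siGRHL2a, and all siTP63b libraries were above the others. TNFAIP3, the deubiquitinase A20, was at 13.1, 14.6 and 12.9 CPM in siTP63b, 11.5, 11.8 and 10.7 CPM in siSOX2b and 10.9, 11.9 and 12.2 CPM in siGRHL2a, again with the siTP63b libraries highest. RELB was spread more widely in siTP63b, at 6.27, 3.81 and 5.13 CPM, than in siSOX2b, at 5.72, 6.18 and 5.93 CPM.

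Other genes of the pathway were read as lists, beside the share of all genes past both thresholds. That share was 3.25%, 6.72%, 5.44% and 3.34% in the 4 comparisons, in the order used above. No share of all genes was taken for an unadjusted p under 0.05. It cannot be smaller than the share under the adjusted p, which was 23.4%, 31.9%, 27.4% and 24.9%. Counts by unadjusted p, in this and the neighbouring paragraphs, therefore have no exact background beside them, and no change is read from them. In a list of 50 NF-kB pathway genes and regulators, 48 were tested, and 0 passed both thresholds in siKLF5b against siNC1, in siTP63b against siGRHL2a and in siSOX2b against siGRHL2a by edgeR. DESeq2 called 0 there too. By edgeR, 21, 17 and 18 of the 48 had an unadjusted p under 0.05. In siTP63b against siSOX2b, 2 were higher and 1 was lower: CEBPB, a transcription factor that cooperates with NF-kB (log2FC 1.02, adjusted p 1.1e-12), the kinase MAP3K8 (0.83, 0.00172) and the atypical inhibitor NFKBID (-1.07, 0.00405). Of 60 receptors and adaptors for these ligands, 43 were tested. In siKLF5b against siNC1, CXCR2, the receptor for CXCL1 and CXCL8, was higher (log2FC 0.88, adjusted p 0.0228) and IRAK3, an inhibitory kinase of the interleukin-1 receptor pathway, was lower (-0.98, 0.0237). In siTP63b against siSOX2b 4 receptors were higher and 2 lower, led by IL7R, the receptor for IL-7 and TSLP (log2FC 1.33, adjusted p 1.5e-22), and ACKR3, a scavenging chemokine receptor (-0.92, 4.0e-17). In siTP63b against siGRHL2a 3 were higher and 1 lower, led by ACKR3 (-1.27, 1.9e-21) and IL7R (0.78, 3.5e-15). TLR5, the receptor for flagellin, was the next by adjusted p in both (log2FC 1.21, adjusted p 5.8e-04, and 1.38, 1.3e-04). In siSOX2b against siGRHL2a 0 of the 43 passed by edgeR and 0 by DESeq2. By edgeR, 15 had an unadjusted p under 0.05.

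A list of type I interferon response genes was read beside them, since siRNA duplexes can set off that response. Of 26 tested, 1 was higher and 1 lower in siKLF5b against siNC1, IFI44 (log2FC 1.35, adjusted p 0.0342) and MX2 (-0.88, 0.0348). In siTP63b against siSOX2b 3 were higher, DDX58 (0.79, 4.2e-05), IFI44 (1.70, 6.2e-04) and RSAD2 (1.65, 0.0388), and in siTP63b against siGRHL2a 2 were, DDX58 (0.83, 2.0e-05) and CMPK2 (1.10, 0.0274). DESeq2 called 1, 2 and 1 of the 26 in these comparisons, and the shares of all genes called by edgeR were 3.25%, 6.72% and 5.44%. In siSOX2b against siGRHL2a 0 passed by edgeR, beside 3.34% of all genes, and 0 by DESeq2. By edgeR, 6 had an unadjusted p under 0.05. The median log2FC of the 26 was 0.11, 0.18, 0.11 and -0.06 in the 4 comparisons. The part of this response in the values of the cytokine genes was not tested.

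The promoter matches were set beside the calls. A gene without a match is not a gene shown to lack a site, so no split by motif is read from them. Of the 5 genes higher in siTP63b than in siSOX2b that had a RefSeq window, CXCL1, IL6, BIRC3 and LCN2 held the kappaB consensus and CCL28 did not, while 0 of the 6 lower genes with a window held it. Against siGRHL2a, CXCL1, IL6 and BIRC3 of the 4 higher genes with a window held it, and IL32 of the 5 lower ones did. In siKLF5b against siNC1 it was held by CXCL1, the 1 higher gene, and by 0 of the 4 lower genes with a window. The AP-1 motif was held by CXCL14 and IL1A among the genes lower in siTP63b in either comparison. It was held by LCN2 (as TGAATCA) and CXCL8 among the higher ones, and by IL1RN among the genes lower in siKLF5b. The other genes with the kappaB consensus among the 16 of 33 passed both thresholds in no comparison, namely NFKB1, NFKB2, NFKBIA, TNFAIP3, CXCL2, CXCL3, CCL20 and TSLP, or were not tested, namely CXCL5, CXCL10 and CXCL11.

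The siNC1 levels can be set beside the second set only as values. BIRC3 was at 13.1, 13.7 and 12.5 CPM in siNC1, near siSOX2b and siGRHL2a and far under siTP63b. For IL1A the siNC1 libraries, at 38.7, 42.9 and 40.4 CPM, lay between siTP63b and the other 2 knockdowns. CXCL14 was at 12.5, 11.3 and 11.4 CPM in siNC1, above siTP63b and under siSOX2b and siGRHL2a. NFKBIA, at 32.5, 28.7 and 25.6 CPM in siNC1, was under all 9 libraries of the second set. CSF1 was at 14.5, 10.9 and 12.1 CPM in siNC1, above every library of the second set. In these values the knockdown and the set cannot be told apart.

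Some readable genes passed the adjusted p in no comparison. CXCL3, a neutrophil chemokine, and CCL20, the ligand of CCR6 on dendritic cells and lymphocytes, had at most 22 and 31 counts in a library, and CCL2, which attracts monocytes, had at most 14. ICAM1, the leukocyte adhesion molecule, and IL24 had at most 34 and 26, and SAA2 at most 16. ICAM1 is overlapped over 90.3% of its span by ENSG00000266978 on the opposite strand, which had 1855% as many counts. TSLP, an epithelial cytokine that acts on dendritic cells, was at 2.44, 2.96 and 2.18 CPM in siNC1 and 3.16, 3.25 and 3.50 CPM in siKLF5b (log2FC 0.39, SE 0.23, adjusted p 0.252). LIF, a gp130 cytokine, was at 2.44, 1.26 and 1.34 CPM in siNC1 and 1.05, 1.11 and 1.34 CPM in siKLF5b (log2FC -0.55, SE 0.31, adjusted p 0.215). In all, 20 of the 44 genes overlap another listed gene, and for 15 of these the other gene had at least 10% as many counts.

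**Figure D4:**
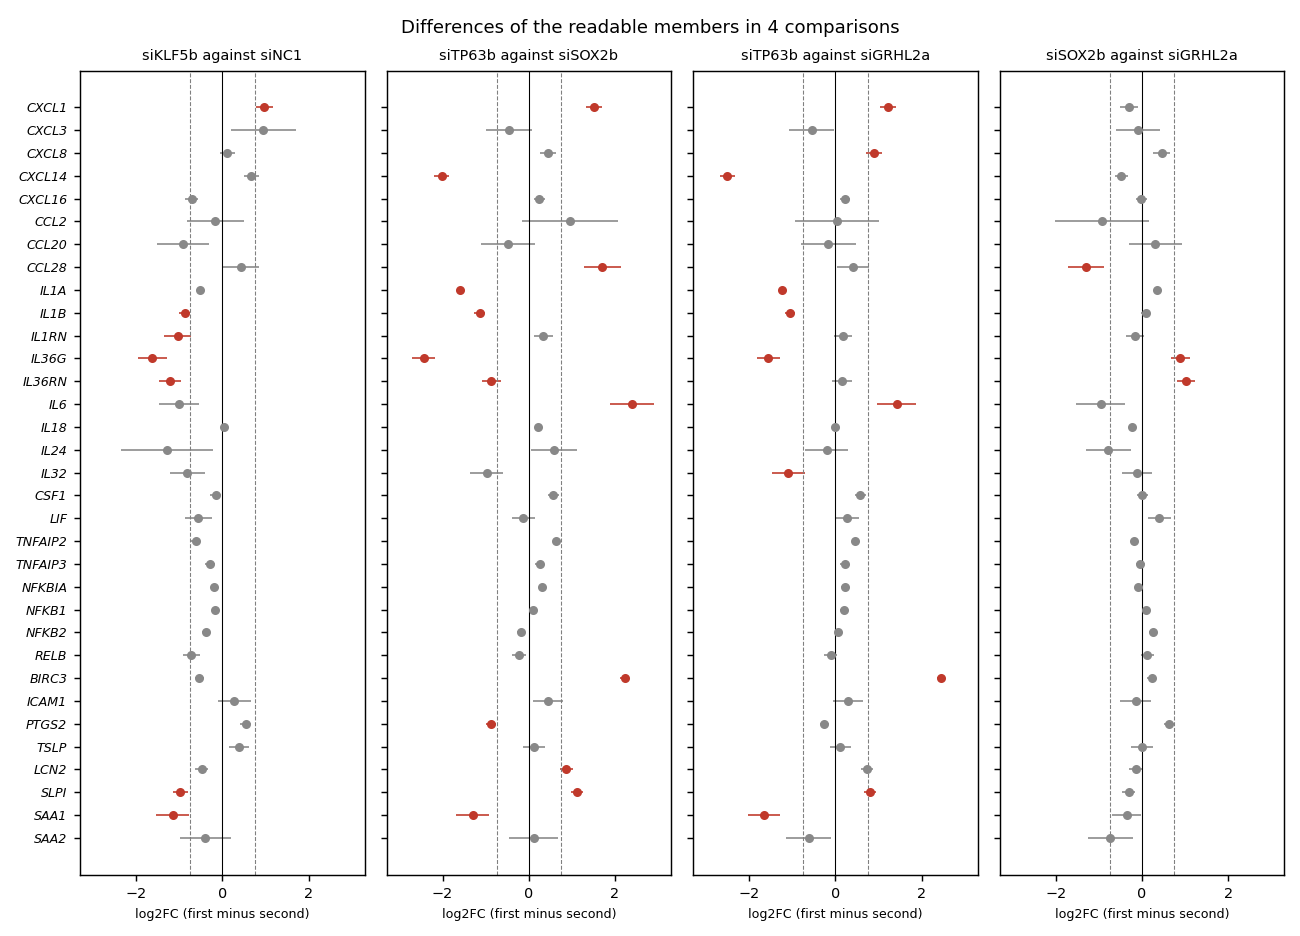
Log2FC of the 33 readable genes in the 4 comparisons, as the first group minus the second, with bars of 1 SE, dashed lines at -0.75 and 0.75, and genes past both thresholds in red. The red points are 1 above and 6 below 0 in siKLF5b against siNC1, 6 and 7 in siTP63b against siSOX2b, 5 and 6 in siTP63b against siGRHL2a, and 2 and 1 in siSOX2b against siGRHL2a.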

How the data were processed

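RNA-seq of HCC95 cells, 5 groups of 3 libraries, was used. The authors captured polyadenylated RNA, aligned reads to hg38 with HISAT2 2.2.1 and counted unique alignments on Gencode genes with featureCounts 2.0.1, and they deposited raw counts without normalization. The counted length was the whole gene span for all 61544 genes, and the use of strand was not given in the sources used here. edgeR 4.0.16 was run in R 4.3.3 on the counts: TMM factors, filterByExpr by group, 1 quasi-likelihood fit of the 15 libraries, and Benjamini-Hochberg adjustment over 25108 genes. The thresholds were 0.05 for the adjusted p and 0.75 for the absolute log2FC. Library totals were 15655495 to 34229063 counts. CPM used these totals multiplied by the TMM factors, and SE was derived from the F statistic. Replicates differed by more than counting noise (chi-square per gene 1.95 to 7.48). The steps were tested on simulated data. All 44 genes are named. Values in every library are given for those past both thresholds with a mean of at least 10 counts in the higher group, up to 12 per comparison by adjusted p, and from each list up to 3 called genes. The genes and lists were chosen with earlier results of these data known. Alternatives were other size factors (RLE, upper quartile), other count filters, the replicate number as a block, fewer libraries in the fit, halved counts in the second set, DESeq2 1.42.0, other fold thresholds, glmTreat, levels by CPM, and each library left out in turn.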

Additional observations from a re-analysis of the deposited data

How the results depend on the processing

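No log2FC of a named gene changed sign in 1012 alternative readings of 57 values. Of these, 928 kept their side of the thresholds, 55 lost it and 29 gained it. The 57 values were those with an adjusted p under 0.05 in the main fit, so a change of sign was unlikely from the start. The other fold thresholds and glmTreat used the main fit again, so no sign could change there. The counts of genes past the thresholds, higher and lower, are given here for each comparison as main value and alternatives. For siKLF5b against siNC1 (1 and 6) they were 3 and 13 by adjusted p alone and 0 and 0 by glmTreat against 0.75; 0 genes were higher at an absolute log2FC above 1, and 3 were lower with at least 10 counts in every library. For siTP63b against siSOX2b (6 and 7), 11 were higher by adjusted p alone, and 3 and 4 passed glmTreat. For siTP63b against siGRHL2a (5 and 6), 9 were higher by adjusted p alone and 3 at an absolute log2FC above 1, 1 and 3 passed glmTreat, and 3 were lower with at least 10 counts in every library. For siSOX2b against siGRHL2a (2 and 1), the counts were 5 and 3 by adjusted p alone, 0 and 0 by glmTreat, and 1 and 0 with at least 10 counts in every library, and 1 was higher at an absolute log2FC above 1. The stricter filter tests fewer genes and the other fold rules change the threshold by construction. With 1 library left out the ranges were 1 to 1 and 5 to 7, 6 to 6 and 7 to 8, 4 to 5 and 5 to 6, and 1 to 2 and 0 to 1 in the same order. Same-numbered replicates did not deviate together (correlations of deviations from -0.0195 to 0.0318), so the numbers were not taken as pairs, and the replicate block left the counts at 1 and 6, 6 and 7, 5 and 6, and 2 and 1. SAA1 in siKLF5b against siNC1 lost its call without a low-count filter (adjusted p 0.0647). IL32 in siTP63b against siGRHL2a lost its own there (0.0606), with only the 6 libraries compared (0.0667), with only the second set (0.0655) and in DESeq2 (0.0549). The cause was not tested. With the counts of the second set halved, the counts of genes past the thresholds were 1 and 7, 6 and 7, 5 and 6, and 2 and 1. Other size factors moved the median of all genes by at most 0.02. Of the 10 highest genes in siNC1 per kb of span, 5 were also among the 10 highest by CPM. Depth limits the 11 genes too low to read, and IL6, CCL28, IL32 and SAA1 had at most 42 counts in a library.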

Other observations

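The interleukin-1 cluster on chromosome 2 holds 4 genes outside the 44, which were read after the values of their neighbours were seen. IL36A, an agonist at the same receptor as IL36G, was at 0.468 ± 0.272 CPM in siKLF5b and 1.15 ± 0.134 CPM in siNC1 (SD of 3 libraries), a log2FC of -1.39 (SE 0.32, adjusted p 7.4e-04 by edgeR). In the second set it was at 8.08 ± 0.607 CPM in siTP63b, 12.9 ± 1.03 in siSOX2b and 12.2 ± 1.71 in siGRHL2a, with a log2FC of -0.67 (adjusted p 5.7e-05) and -0.59 (3.7e-04) for siTP63b, inside the fold threshold. IL37, which dampens inflammation, was lower in siTP63b (0.135 ± 0.066 CPM) than in siGRHL2a (0.428 ± 0.036 CPM), with a log2FC of -1.62 (SE 0.62, adjusted p 0.0455) at levels close to what could be read. IL36B and IL1F10 did not pass the low-count filter.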
